A study of Mus musculus with 8 samples.

Results

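The AP-1 and EGR immediate early genes were described across JoMa1 neural crest precursor cells and the tumour lines derived from them. The members were the FOS family genes Fos, Fosb, Fosl1 and Fosl2, the JUN family genes Jun and Jund, the EGR genes Egr1 and Egr3, and Ier3. They were chosen by symbol, and every probe set that the platform annotation gives to 1 of these symbols was taken. This gave 14 probe sets for 9 genes, of 34945 probe sets with 1 symbol for 18193 genes. The groups were 4 arrays of lines grown from tumours that JoMa1 transfected with MYCN formed in immunocompromised mice, 1 array of JoMa1 that the labels call GFP-transfected, and 3 arrays of the parental JoMa1 culture. All cells descend from the 1 mouse line JoMa1, which carries a tamoxifen-activated fusion of MYC as background to every group. The sources used here do not say whether cells were grown with tamoxifen, or whether the parental arrays came from separate cultures. In such bulk RNA, fewer cells expressing a gene and less of its RNA per cell cannot be told apart. RNA came from cultures harvested before confluence. The tumour lines carry the numbers 3 to 6.

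Immediate early genes are transcribed within minutes of a growth factor, serum or stress signal, without new protein synthesis. ERK and related kinases activate the factors that sit on their promoters, chiefly serum response factor with its ETS partners, and CREB. The products are themselves transcription factors: FOS and JUN proteins pair through leucine zippers to form AP-1, which binds TGANTCA, and EGR proteins are zinc finger factors that bind GC-rich sites. Fosl1 and Fosl2 encode FRA-1 and FRA-2, FOS family proteins that accumulate under sustained ERK signalling and lack the strong activation domain of FOS. In the neural crest lineage EGR factors are best known from Schwann cells, where EGR2 drives myelination.

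Promoter stretches of Fos, Fosl2 and Jun are shown because they hold letters that AP-1, CREB or EGR factors are known to bind. A RefSeq promoter table of build GRCm38.p6 held entries for 6 of the 9 members, namely Fos, Fosb, Fosl2, Jun, Jund and Ier3. The 250 bases before the annotated start were searched on both strands for the AP-1 site TGANTCA, the cyclic AMP response element TGACGTCA and its core TGACGT, the AP-1 variant TGACATCA, the EGR site GCGNGGGCG, the E-box CACGTG that MYC proteins bind, and the CArG box bound by serum response factor. The core TGACGT overlaps the full element wherever that occurs. Capitals mark the matches. The Fos stretch lies at chr12:85473640-85473889 on the plus strand, the Fosl2 stretch at chr5:32136222-32136471 on the plus strand, and the Jun stretch at chr4:95052223-95052472 on the minus strand, each read 5′ to 3′ in the gene's direction.
Fos: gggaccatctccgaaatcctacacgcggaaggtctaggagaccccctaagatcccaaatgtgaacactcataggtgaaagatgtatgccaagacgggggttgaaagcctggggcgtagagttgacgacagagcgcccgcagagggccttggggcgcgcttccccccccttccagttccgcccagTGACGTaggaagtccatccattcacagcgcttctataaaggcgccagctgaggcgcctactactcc
Fosl2: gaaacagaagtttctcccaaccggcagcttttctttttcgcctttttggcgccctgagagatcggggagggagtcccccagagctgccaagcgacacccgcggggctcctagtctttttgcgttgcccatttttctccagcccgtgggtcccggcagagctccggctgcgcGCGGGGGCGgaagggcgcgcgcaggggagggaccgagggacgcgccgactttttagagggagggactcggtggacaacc
Jun: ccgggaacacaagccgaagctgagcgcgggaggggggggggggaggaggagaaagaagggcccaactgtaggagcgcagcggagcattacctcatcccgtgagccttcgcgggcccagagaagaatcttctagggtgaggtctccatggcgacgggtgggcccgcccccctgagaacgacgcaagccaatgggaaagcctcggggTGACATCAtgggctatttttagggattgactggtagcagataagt

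The Fos stretch held TGACGT, which 6.47% of all 32851 promoter stretches hold on either strand. Fosl2 held GCGGGGGCG, a match to the EGR site, as did Fosb, and 4.7% of all stretches hold that site. Jun held TGACATCA, found in 2.93% of stretches. The letters TGANTCA (6.75% of stretches), TGACGTCA (1.55%) and CACGTG (6.02%) and a CArG box (1.47%) were not in the windows of these 6 genes. Bases further from the start were not searched, so a site missing from a window may still lie upstream of that gene. A match is a description of letters and was not tested for binding.

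Levels are given as log2 RMA values, so that a difference of 1 is a doubling, with ± for the SD among a group's arrays. Array medians ran over 6.26 to 6.30, and bacterial trpnX controls, which show the level without target, averaged 3.84 to 4.04. Values of different probe sets are not compared with each other as amounts of RNA, and array medians serve only as a rough guide. Summed levels add the log2 values of several probe sets and are not amounts of RNA either. The transfected gene Mycn read 14.13, 14.08, 14.20 and 14.26 in tumour lines 3 to 6 with its brightest probe set, 11.73 in the array labelled GFP-transfected, and 7.29, 7.49 and 7.49 in parental arrays. Its other probe sets differed between tumour lines and parental arrays by -3.53 and 0.30, and between the GFP-labelled and parental arrays by -3.80 and 0.12. The brightest probe set of the GFP-labelled array therefore goes against its label, and every direction drawn from that array below has this limit. Among 10 neural crest markers, the lowest value of Snai2, Pax3, Twist1 and Nes on any array was 8.51. Foxd3 read 4.41 to 4.80, Ednrb 5.06 to 5.44 and Ngfr 5.08 to 5.56, all below the array medians. Of 8 leukocyte markers, 7 were measured, with 3 higher and 0 lower in tumour lines (Cd14, Cd68 and Lyz2) and a summed level of 41.5 to 42.0 there, 39.8 in the GFP-labelled array and 37.9 to 38.9 in parental arrays. Of 10 neural crest markers 1 rose (Snai2) and 1 fell (Pax3), and of 4 endothelial markers 0 were called in that comparison. Over all genes, 16.4% were higher and 19.3% lower in tumour lines than in parental arrays. The defining leukocyte gene Ptprc read 3.90 to 4.37, below the array medians too. A sign of RNA quality, the 3′ minus 5′ difference of control probe sets, ran over 0.52 to 0.61 for Actb in tumour lines, was 0.62 in the GFP-labelled array and ran over 0.63 to 0.64 in parental arrays. For Gapdh it was 0.09 to 0.15, 0.08 and 0.05 to 0.08 in the same order. The part of these shifts in the results below was not tested. The bioB hybridisation control was low in parental array 3 (7.70, against 8.86 to 9.17 on the other arrays), and without that array 3 members were still higher and 3 lower in tumour lines than in parental arrays. Of all 18193 genes, 2337 were then higher and 2868 lower.

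**Figure D1:**
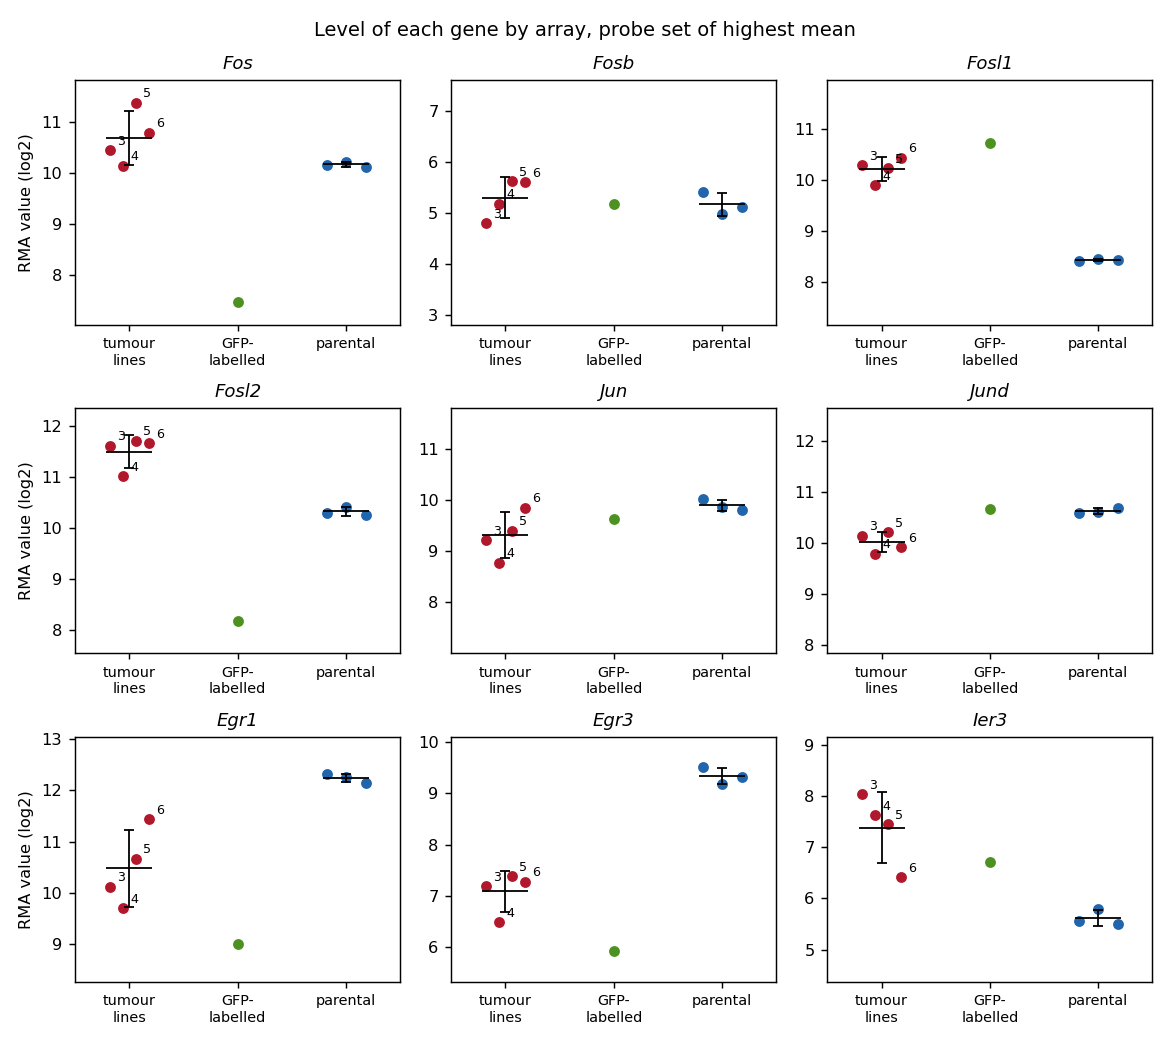
RMA values (log2, vertical axis, the same span of 4.8 units in each panel) of the brightest probe set of each of the 9 genes, by group (horizontal axis). Points are arrays, with tumour lines marked by number, horizontal bars are group means and whiskers the SD. Fosl1 and Ier3 read higher in all tumour lines than in parental arrays, Egr1 and Egr3 lower, and Fos and Fosl2 were lowest in the array labelled GFP-transfected.

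The question was how these genes differ between lines from MYCN-induced tumours and the precursor cells. Fosl1, Ier3 and Fosl2 rose in tumour lines, by 3.44-fold, 3.41-fold and 2.25-fold. Egr3, Egr1 and Jund fell, by 4.79-fold, 3.41-fold and 1.53-fold. Fos (0.52), Fosb (0.13) and Jun (-0.58) were not called. By the brightest probe set of each gene, 3 of the 9 members were higher and 3 lower at a limma adjusted p under 0.05, against 16.4% of all 18193 genes higher and 19.3% lower, 35.6% in all. Counted as probe sets, 4 of 14 were higher and 3 lower, against 15.5% and 18.4% of all probe sets, 33.9% in all. The tumour lines lay beyond all parental arrays for 6 of the 9 genes, where 44.4% of all genes did so. The median difference of the members was 0.13, and that of all genes was 0.013.

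In the FOS family, Fosl1 read 10.29, 9.90, 10.23 and 10.44 in tumour lines 3, 4, 5 and 6, 10.72 in the GFP-labelled array, and 8.41, 8.45 and 8.44 in parental arrays. All tumour lines and the GFP-labelled array lay above the parental arrays, whose 3 values were within 0.05 of each other. The difference between tumour lines (10.21 ± 0.23, n = 4) and parental arrays (8.43 ± 0.02, n = 3) was 1.78 (SE 0.12, limma adjusted p = 1.07e-05). A dimmer Fosl1 probe set gave 1.34 (SE 0.10, limma adjusted p = 1.67e-05). Fosl1 is itself a known AP-1 target and its protein is stabilised by ERK. With the GFP-labelled array pooled with the parental ones, the Fosl1 difference was 1.21 and no longer called (limma adjusted p = 0.103). That array read 10.72, on the tumour side of the parental arrays, so pooling it with them was bound to narrow the difference.

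Fosl2 stood at 11.60, 11.01, 11.70 and 11.65 in tumour lines 3 to 6, at 8.18 in the GFP-labelled array, and at 10.29, 10.41 and 10.25 in parental arrays. The tumour lines were highest and the GFP-labelled array lowest, with no overlap. Tumour lines averaged 11.49 ± 0.33 and parental arrays 10.32 ± 0.08, a difference of 1.17 (SE 0.16, limma adjusted p = 0.000622). The other Fosl2 probe set read 7.18 to 7.38 in tumour lines and 7.08 to 7.29 in parental arrays, groups that overlapped, and differed by 0.14 (limma adjusted p = 0.271). The Fosl2 results therefore rest on 1 of its 2 probe sets.

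Fos, the founding member of the family and the classic serum-induced gene, read 10.44, 10.14, 11.37 and 10.79 in tumour lines, 7.48 in the GFP-labelled array, and 10.16, 10.22 and 10.13 in parental arrays. Line 5 was highest and line 4 lay among the parental arrays. The tumour mean of 10.69 ± 0.53 was 0.52 above the parental mean of 10.17 ± 0.05 (SE 0.25) and was not called (limma adjusted p = 0.146). Without tumour line 4 the difference was 0.70 and was called (limma adjusted p = 0.0327; the alternatives spanned 0.0327 to 0.28). Fosb, whose product is best known from neurons, was dim, with 4.79 to 5.62 in tumour lines, 5.18 in the GFP-labelled array and 4.96 to 5.41 in parental arrays. Its groups overlapped and it was called in none of the comparisons (limma adjusted p of 0.678, 0.988 and 0.831).

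Among JUN family genes, Jun, whose protein is the main partner of FOS, read 9.22, 8.78, 9.41 and 9.86 in tumour lines, 9.63 in the GFP-labelled array, and 10.03, 9.87 and 9.81 in parental arrays. Tumour line 6 lay among the parental arrays and the other lines below them. The difference was -0.58 (SE 0.21, limma adjusted p = 0.0667) with this probe set and -0.40 (limma adjusted p = 0.105) with the other. Without tumour line 6 both were called, at -0.77 and -0.55 (limma adjusted p = 0.00827 and 0.00984).

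Jund, the least inducible JUN gene, read 10.14, 9.79, 10.21 and 9.92 in tumour lines, 10.66 in the GFP-labelled array, and 10.59, 10.60 and 10.69 in parental arrays. Every tumour line lay below every parental array. The averages were 10.01 ± 0.20 in tumour lines and 10.63 ± 0.06 in parental arrays, a difference of -0.61 (SE 0.11, limma adjusted p = 0.00261). A dim Jund probe set read 5.31 to 5.57 in tumour lines and 5.37 to 5.65 in parental arrays and was not called (-0.05).

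The EGR genes were lower outside the parental cells. Egr1, a zinc finger factor gene induced by ERK through serum response factor, read 10.12, 9.69, 10.66 and 11.44 in tumour lines, 8.99 in the GFP-labelled array, and 12.32, 12.26 and 12.15 in parental arrays. All tumour lines lay below the parental arrays, spread over 1.74 units among themselves. The tumour mean of 10.48 ± 0.75 was 1.77 below the parental mean of 12.25 ± 0.08 (difference -1.77, SE 0.35, limma adjusted p = 0.00405).

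Egr3, whose product binds the same kind of site as EGR1, read 7.18, 6.48, 7.38 and 7.27 in tumour lines, 5.91 in the GFP-labelled array, and 9.51, 9.19 and 9.33 in parental arrays. Again every tumour line lay below the parental arrays, and the GFP-labelled array was lowest. Tumour lines averaged 7.08 ± 0.41 and parental arrays 9.34 ± 0.16 (-2.26, SE 0.20, limma adjusted p = 5.62e-05). A second Egr3 probe set read 7.27 to 7.42 in tumour lines and 7.27 to 7.35 in parental arrays, overlapping groups, with a difference of 0.07 (limma adjusted p = 0.522). With the GFP-labelled array pooled with the parental ones, neither Egr1 (-0.95, limma adjusted p = 0.407) nor Egr3 (-1.40, limma adjusted p = 0.206) was called. The GFP-labelled array read below the tumour lines for both genes, so pooling it with the parental arrays was bound to narrow both differences.

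Ier3, an immediate early gene whose product acts on cell survival and ERK signalling and is no transcription factor, read 8.04, 7.64, 7.45 and 6.41 in tumour lines, 6.71 in the GFP-labelled array, and 5.56, 5.79 and 5.49 in parental arrays. Line 3 was highest, and line 6 lay below the GFP-labelled array but above all parental arrays. The tumour mean of 7.39 ± 0.69 exceeded the parental mean of 5.61 ± 0.16 by 1.77 (SE 0.32, limma adjusted p = 0.00284).

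**Figure D2:**
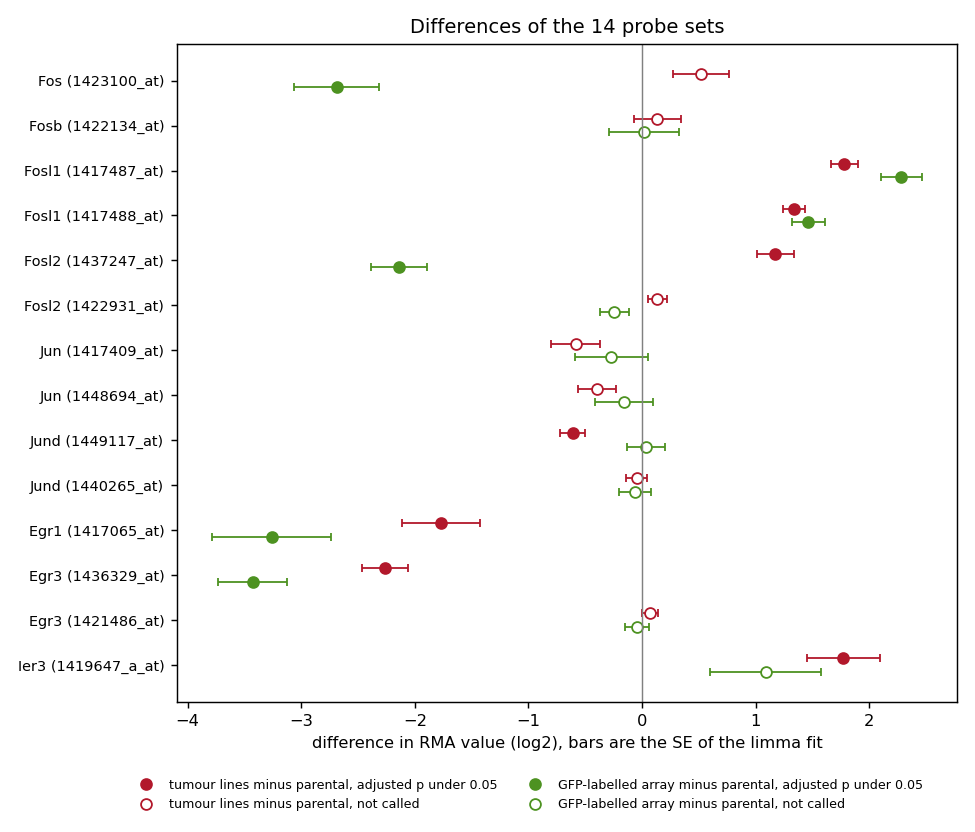
Differences in RMA value (log2, horizontal axis) of the 14 probe sets, for tumour lines minus parental arrays (red) and the GFP-labelled array minus parental arrays (green). Bars are the SE of the limma fit and filled points have an adjusted p under 0.05. Fosl1, Egr1 and the brighter Egr3 probe set lie on the same side in both comparisons, which share the parental arrays, while the brighter Fosl2 probe set differed by 1.17 in tumour lines and -2.14 in the GFP-labelled array.

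The single array labelled GFP-transfected was set against the parental arrays with the spread of the other groups, so its differences have no replicate check. In that array Egr3 fell by 10.8-fold, Egr1 by 9.58-fold, Fos by 6.44-fold and Fosl2 by 4.41-fold, while Fosl1 rose by 4.87-fold. Thus 1 member was higher and 4 were lower, against 7.18% of all genes higher and 8.32% lower, 15.5% in all. On the log2 scale the differences were -3.43 (SE 0.31) for Egr3, -3.26 (SE 0.52) for Egr1, -2.69 (SE 0.37) for Fos, -2.14 (SE 0.24) for Fosl2 and 2.28 (SE 0.18) for Fosl1. Their limma adjusted p-values were 0.000204, 0.00418, 0.0021, 0.000775 and 0.000103. The dimmer Fosl1 probe set gave 1.46 (limma adjusted p = 0.000366), whereas the other probe sets of Egr3 (-0.04) and Fosl2 (-0.24) were not called. Jun (-0.27), Jund (0.04) and Fosb (0.02) were not called. Ier3 differed by 1.09 (SE 0.49, limma adjusted p = 0.201) and was called only without tumour line 6 (limma adjusted p = 0.0182).

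Set against the same array, tumour lines were higher for Fosl2 (3.31, SE 0.24, 9.94-fold), Fos (3.21, SE 0.36, 9.24-fold) and Egr3 (1.17, SE 0.30, 2.25-fold) and lower for Jund (-0.65, SE 0.16). The limma adjusted p-values were 2.26e-05, 0.000262, 0.0175 and 0.0158. With 3 members higher and 1 lower, the shares compare with 13.8% of all genes higher and 16.2% lower, 30% in all. The dimmer probe set of Fosl2 passed narrowly (0.38, limma adjusted p = 0.0494; the alternatives spanned 0.0329 to 0.0805). Egr1 (1.49, SE 0.51, limma adjusted p = 0.0567) and Fosl1 (-0.50, SE 0.18, limma adjusted p = 0.063) were not called. Both were called without tumour line 4, without tumour line 6, with array weights and among probe sets above the median level, and Egr1 also with repeated normalization. Without line 4 and without line 6 the Egr1 values were 1.75 (limma adjusted p = 0.0128) and 1.17 (0.0258), and those of Fosl1 were -0.40 (0.031) and -0.58 (0.0311). Ier3 (0.68) was called only without tumour line 6 (1.01, limma adjusted p = 0.013). Jun (-0.32) and Fosb (0.12) were not called. Mesenchymal markers also differed between the groups. In the GFP-labelled array 5 of 7 fibroblast markers were lower than in parental arrays and 0 higher, among the lower ones Pdgfra (-1.60) and Col1a2 (-2.08). Dimmer Col1a2 probe sets (-1.28 and 0.13) were not called there. In tumour lines 4 of 7 were higher and 0 lower, Thy1 (15.9-fold), Col1a2 (a difference of 2.99) and Pdgfra (2.56) most. Of all genes, 8.32% were lower in the GFP-labelled array and 16.4% higher in tumour lines than in parental arrays. The summed RMA level of these 7 markers was 66.8 to 72.7 in tumour lines, 43.9 in the GFP-labelled array and 59.1 to 59.9 in parental arrays. The endothelial marker Cdh5 read 4.67 to 4.97 in tumour lines, 6.71 in the GFP-labelled array and 4.63 to 4.84 in parental arrays, and was called in both comparisons with the GFP-labelled array. A dimmer Cdh5 probe set was not called between the GFP-labelled and parental arrays (-0.21). In tumour lines against parental arrays, Egr1 (-1.77) and Egr3 (-2.26) went the other way from the called fibroblast markers. The part of these markers in the results for Fos, Fosl2 and the EGR genes was not tested.

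The 4 tumour lines differed among themselves. The SD over the lines was 0.75 for Egr1, 0.69 for Ier3, 0.53 for Fos and 0.45 for Jun, at percentiles 98.4, 98.1, 96.7 and 95.4 of the SDs of all genes. It was smallest for Jund (0.20, percentile 75.1) and Fosl1 (0.23, percentile 81.4). Line 4 had the lowest value of the lines for 7 of the 9 members, the exceptions being Fosb (lowest in line 3) and Ier3 (lowest in line 6), and the highest for 0. Over all genes, line 4 was the lowest line for 27.5% and the highest for 26.7%. Line 5 was highest for 5 members, namely Fos, Fosb, Fosl2, Jund and Egr3, and line 6 for Fosl1, Jun and Egr1. This tally was made after the values were seen. The members share each array, so they are not independent.

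**Figure D3:**
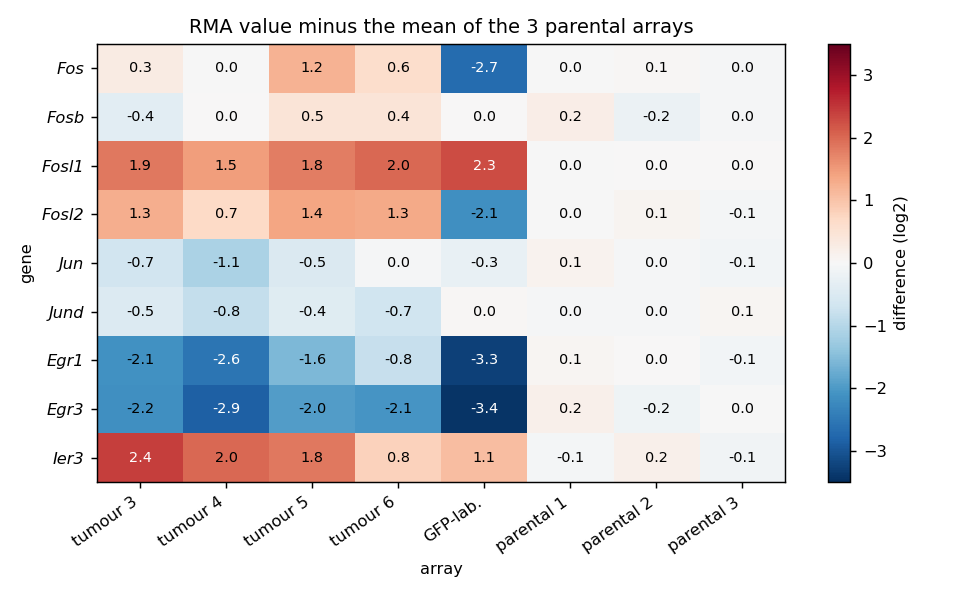
RMA value of the brightest probe set minus the mean of the 3 parental arrays (log2, colour and printed number), for the 9 genes (rows) and 8 arrays (columns). Among tumour lines, line 4 is the lowest for 7 genes, and the GFP-labelled column shows Fos, Fosl2, Egr1 and Egr3 low and Fosl1 high.

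Other immediate early genes showed where the members stand among genes induced by the same signals. In a list of 21, 12 rose and 2 fell in tumour lines against parental arrays, with a median difference of 0.53. Over all genes, 16.4% were higher and 19.3% lower in that comparison. The list includes Myc, higher in tumour lines (1.26) and lower in the GFP-labelled array (-1.41) than in parental arrays. Whether its probe set also reads the MYC fusion carried by every group was not tested. Dusp1, a phosphatase gene that switches off MAP kinases, read 12.41, 12.74, 12.75 and 12.93 in tumour lines, 9.77 in the GFP-labelled array, and 9.51, 9.62 and 9.47 in parental arrays (3.17, SE 0.12, 9.02-fold, limma adjusted p = 3.77e-07). Ier2, a nuclear protein gene, rose by 2.16 (SE 0.10), and Nr4a1, an orphan nuclear receptor gene, by 1.83 (SE 0.18). All tumour lines lay above all parental arrays for these 3 genes. Btg2, an antiproliferative gene and p53 target, went the opposite way (-1.38, SE 0.13) and was also lower in the GFP-labelled array (-0.95, limma adjusted p = 0.0118). In the GFP-labelled array 2 of the 21 were higher and 4 lower, against 7.18% and 8.32% of all genes, with a median of -0.16. Dusp1 (0.24), Ier2 (-0.05) and Nr4a1 (0.24) were not called there. Line 4 was the lowest tumour line for 12 of the 21, and for 27.5% of all genes.

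Genes for AP-1 partners moved more often upward. Of 12 measured, 7 rose and 3 fell in tumour lines, against 16.4% and 19.3% of all genes. The median difference was 0.39. Junb, the JUN family gene that is not among the members, read 11.79, 11.22, 11.86 and 11.29 in tumour lines, 8.20 in the GFP-labelled array, and 8.58, 8.33 and 8.05 in parental arrays. Its difference of 3.22 (SE 0.19, 9.30-fold, limma adjusted p = 4.87e-06) stood beside -0.12 for the GFP-labelled array, which was not called. Maf, a large MAF factor gene, rose by 2.56 (SE 0.17) in tumour lines and fell by 3.07 in the GFP-labelled array (SE 0.26), with 4.56 there and 9.78 to 10.63 in tumour lines. Of its 6 probe sets, 5 were called higher in tumour lines (0.50 to 3.18) and 1 was not (0.07). The fall in the GFP-labelled array rests on the brightest, since the other 5 (-0.65 to 0.07) were not called there. The small MAF gene Maff rose by 1.49 (SE 0.16) in tumour lines and by 1.57 in the GFP-labelled array. Atf2, a CRE-binding partner of JUN, fell by 0.83 (SE 0.15) in tumour lines.

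The EGR relatives and their corepressors fell or were not called. Of 4 measured, 0 rose and 3 fell in tumour lines, against 16.4% and 19.3% of all genes, with a median of -0.71. Egr2 read 5.32, 5.16, 5.17 and 5.46 in tumour lines, 4.98 in the GFP-labelled array, and 7.23, 7.61 and 7.34 in parental arrays. The difference was -2.12 (SE 0.11, limma adjusted p = 2.87e-06) for tumour lines and -2.42 (SE 0.17) for the GFP-labelled array, and a second probe set gave -2.25 and -2.45. Nab2, an EGR-induced corepressor of EGR factors, fell by 0.93 (SE 0.12) in tumour lines and by 1.15 in the GFP-labelled array (SE 0.18). Its relative Nab1 fell by 0.50 in tumour lines (SE 0.17, limma adjusted p = 0.0475) and lost the call in 6 of the 7 fits that left out 1 array. With the GFP-labelled array pooled with the parental ones, 1 of the 4 was called, and 5401 of all 18193 genes in place of 6482. For Egr2 and Nab2 that array lay below the parental arrays, so pooling was bound to narrow their differences.

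**Figure D4:**
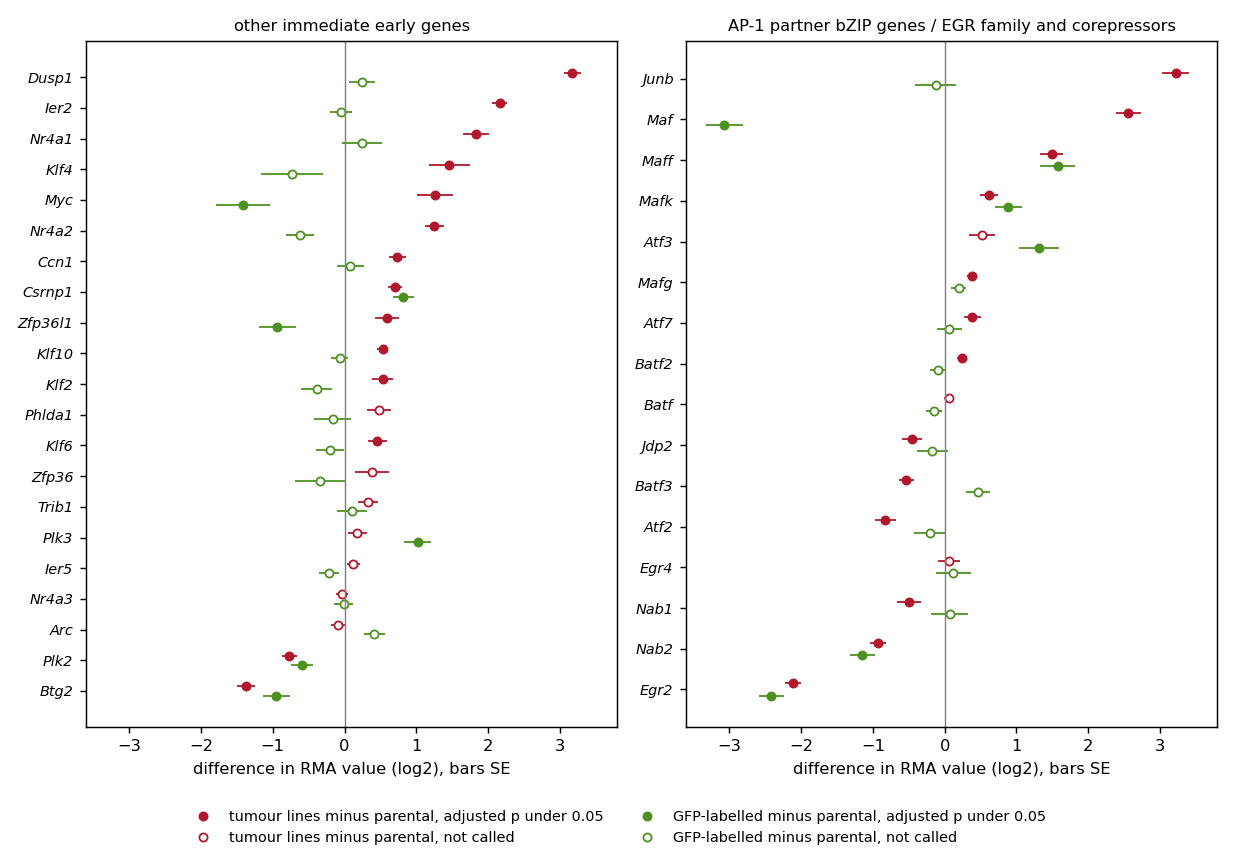
Differences in RMA value (log2, horizontal axes) of 21 other immediate early genes (left) and of 12 AP-1 partner genes and 4 EGR family and corepressor genes (right), for tumour lines (red) and the GFP-labelled array (green) minus parental arrays. Bars are SE and filled points have an adjusted p under 0.05. Dusp1 (3.17) and Junb (3.22) differed in tumour lines and were not called in the GFP-labelled array, whereas Egr2 was lower in both.

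Upstream kinases and promoter factors were taken by their brightest probe sets. Of 15 measured, 2 rose and 5 fell in tumour lines against parental arrays (46.7% called, against 35.6% of all genes), with a median of -0.14. In the GFP-labelled array 0 of the 15 were called by these probe sets, against 15.5% of all genes, with 0.56 for Braf and -0.39 for Srf. But a dimmer Creb1 probe set was higher there (0.69, limma adjusted p = 0.00313). Mrtfa, an actin-regulated coactivator of serum response factor, rose by 0.99 (SE 0.19). The ETS partner gene Elk3 fell by 0.74 (SE 0.08) with its brightest probe set. A further 2 Elk3 probe sets were called lower (-0.50 and -0.70) and the dimmest was not (-0.17). Srf itself fell by 0.72 (SE 0.08). The Srf call rests on 1 probe set that can bind several transcripts, and the other Srf probe set differed by -0.17 (limma adjusted p = 0.345). Rps6ka3, an ERK-activated kinase gene, rose by 0.31 (SE 0.09), and its other probe sets (-0.15 and 0.06) were not called. That call was lost in 4 of the 7 fits that left out 1 array and with averaged probe sets (0.07, limma adjusted p = 0.4). Without parental array 2 or 3, 4 of the 15 were called. Of all 18193 genes, 5196 and 5205 were called in those fits, against 6482 with all arrays.

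Genes known as AP-1 targets rose in tumour lines in 8 of 14 cases and fell in 3, against 16.4% and 19.3% of all genes. Their median difference was 0.86. The matrix protease gene Mmp3 rose by 2.70 (SE 0.16), the cytokine gene Il6 by 2.66 (SE 0.39) and the metallothionein gene Mt2 by 2.18 (SE 0.15). Plau, the urokinase gene, differed the other way (-0.74, SE 0.25, limma adjusted p = 0.0465) and its second probe set was not called (-0.14). The Plau call was lost in 5 of the 7 fits that left out 1 array and with the GFP-labelled array pooled with the parental ones (-0.31), and its limma adjusted p reached 0.654 over the alternatives. Plau was also lower in the GFP-labelled array (-1.72), so pooling was bound to narrow its difference. Mmp9 (-0.67, limma adjusted p = 0.000122) and Ccnd1 (-0.38, limma adjusted p = 0.0497) also fell in tumour lines. In the GFP-labelled array Mmp9 was lower too (-0.70, limma adjusted p = 0.00302) and Ccnd1 was not called (0.16). The GFP-labelled array had 2 of the 14 higher and 4 lower, against 7.18% and 8.32% of all genes, with a median of -0.07. Plaur, the urokinase receptor gene, was higher in both, by 1.29 in tumour lines and 1.61 in the GFP-labelled array. Mmp13, a collagenase gene, read 5.12 in the GFP-labelled array against 8.58 to 8.70 in parental arrays (-3.53). In tumour lines 3 to 6 it read 7.27, 7.96, 8.52 and 6.72. Every tumour line thus lay below every parental array and above the GFP-labelled array. The difference between tumour lines and parental arrays was not called (-1.03, limma adjusted p = 0.0575).

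The genes with profiles closest to the members were sought by the root mean square difference over the 8 arrays after centring each profile, among 4415 genes spanning at least 1 log2 unit. Closest to Fosl1 were Abcb1b (0.13), a drug efflux pump gene, and Nabp1 (0.20), a single-stranded DNA binding protein gene. Fhod3 (0.16) and Pbxip1 (0.17) were closest to Fosl2. Fos was nearest to Dpt (0.22), an extracellular matrix protein gene, and Bmp4 (0.23), a growth factor gene. For Egr1 the nearest were Tnc (0.31), the matrix protein tenascin C, and Mfap2 (0.45), and for Egr3 Calml4 (0.34) and the thrombospondin gene Thbs2 (0.35). Jun was nearest to the TEAD factor gene Tead1 (0.12) and the kinetochore gene Zwilch (0.14), and Ier3 to Gm6958 (0.25) and Syt7 (0.30). Tnc read 9.30, 9.03, 9.78 and 9.99 in tumour lines, 8.40 in the GFP-labelled array, and 11.03, 11.02 and 10.84 in parental arrays, in the order of lines seen for Egr1. It was picked for its likeness to Egr1 over these same arrays, so that order is no separate observation.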

How the data were processed

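Expression was measured on 8 Affymetrix mouse arrays, 1 per sample. The authors deposited log2 values, 1 for each probe set on each array. The tools RMA and Partek are listed in the submitters' processing notes, with no version, and the scale was inferred from the range of the values. The notes name no genome build. RMA draws weak signals to a common floor, so differences of dim probe sets are understated, and normalizes away changes in total RNA. Depth has no counterpart here: the number of arrays limits the precision. Replicate arrays of a group differed from each other and none were copies. Nothing states that parental arrays are separate cultures, so p-values measure the spread between these arrays, which may be technical.

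Of 45101 probe sets, 34945 had 1 symbol in the platform annotation, 932 several, 9160 none and 64 were controls; only the first kind was tested. Each was fitted singly with limma (version 3.58.1, R 4.3.3; lmFit, eBayes, two-sided) with the 3 groups as coefficients and all 8 arrays in the fit, and Benjamini-Hochberg adjustment over all 34945. It was called at an adjusted p under 0.05. A gene stands with its probe set of highest mean. The GFP-labelled group, with 1 array, takes its spread from the tumour lines and parental arrays. The fit was tested on simulated data.

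The members and the 9 other gene lists were chosen with earlier results of these data known, so they are no independent evidence. Named genes were all members and Mycn, up to 3 called genes of largest difference per list and up to 1 called gene against its majority, and the 2 nearest profiles per member spanning at least 1 log2 unit. Junb, Egr2 and Nab genes entered by this rule. Plaur, Mmp9, Mmp13, Ccnd1, Braf, Creb1, Myc, Twist1, Nes, Foxd3, Ednrb, Ngfr, Ptprc and Cdh5 were added after their values were seen. A further 8 list genes without a usable probe set were not analysed here. The alternatives were 17 other settings.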

Additional observations from a re-analysis of the deposited data

Results flagged for a closer look

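In 41 groups of 4 tumour-line values, those of the member probe sets and the named list genes, 5 held a line far from the other lines. Chance alone flags about 1 in 20 groups. Fosl2 read 11.01 in line 4, against 11.60 to 11.70 in the other lines. Mrtfa (9.09 against 9.80 to 9.92) and the leukocyte marker Cd68 (6.30 against 6.58 to 6.62) were also low in line 4. Ier2 read 12.93 in line 5, above 12.59 to 12.63 elsewhere. The Egr3 probe set that was called in no comparison read 7.27 in line 6 and 7.41 to 7.42 in the other lines, a small gap.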

How the results depend on the processing

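The calls of tumour lines against parental arrays changed most when the GFP-labelled array was pooled with the parental ones: 1 member was then lower in place of 3, and 1 EGR relative or corepressor was called in place of 3. Of all 18193 genes, 2920 were then lower in place of 3503, and 5401 were called in place of 6482. Pooling was bound to narrow differences of genes for which the GFP-labelled array lay on the tumour side of the parental arrays. Left out of the fit, that array changed none of the calls of single genes and probe sets examined. For tumour lines against the GFP-labelled array, 1 member was lower, 0 where probe sets of a gene were averaged, 2 above the median level and 2 with array weights. Over all 18193 genes, 2950 were lower in that comparison, 3056 with averaged probe sets and 3134 with array weights. Above the median level, 2861 of 10257 genes were lower. Leaving out 1 array at a time gave 1 to 2 members higher in the GFP-labelled array than in parental arrays, 3 to 5 higher and 1 to 2 lower in tumour lines than in the GFP-labelled array, and 4 to 7 upstream genes called. Over all 18193 genes those fits gave 794 to 1554 higher, 2270 to 2687 higher and 2630 to 3142 lower in the same order. They called 4981 to 6533 genes in tumour lines against parental arrays. Over all alternatives, 1007 values of single genes and probe sets kept direction and side of the threshold, 38 lost the call, 15 gained it and 10 changed sign, all 10 of dim or uncalled Fosb and Jund values near 0. Fosb in the GFP-labelled array against parental arrays turned to -0.0208 with array weights and ranged from -0.0831 to 0.138 with 1 array left out. Jund there turned to -0.0156 with repeated normalization and -0.0145 with averaged probe sets. The dim Jund probe set, with 1 array left out, ranged from -0.110 to 0.0321 in tumour lines against parental arrays, from -0.126 to 0.0161 in the GFP-labelled array against parental arrays, and from -0.0245 to 0.0609 between tumour lines and the GFP-labelled array. In the last comparison it turned to -0.0102 with arrays centred and -0.0129 with repeated normalization. The causes were not tested. No paired analysis was possible because tumour lines and parental arrays share only the number 3.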
